A study of Homo sapiens with 24 samples.

Results

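MYC and 7 genes of polyamine metabolism were followed through VCaP and LNCaP, androgen-responsive human prostate cancer cell lines. The 7 are the synthesis enzymes ODC1, AMD1, SRM and SMS, the breakdown enzyme SAT1, and OAZ1 and AZIN1, which set how long the first enzyme lasts. The members were chosen by gene symbol, from what earlier analysis of the same VCaP arrays had shown of their response to androgen with and without ERG. They were 8 of 19775 genes and 14 of 54675 probe sets on the array, and all 8 passed the filter on low intensity in both lines.

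RNA from these lines had been hybridised to 24 expression arrays (Affymetrix HG-U133 Plus 2.0), 3 in each of 8 groups, labelled A, B and C and described as biological replicates. VCaP carries a TMPRSS2-ERG fusion, in which an androgen-responsive promoter drives the ETS factor ERG, and LNCaP carries a rearranged ETV1, another ETS factor. The 4 VCaP groups received a control siRNA (siControl) or siRNA against ERG (siERG), each followed by ethanol vehicle (EtOH) or dihydrotestosterone (DHT), the potent natural androgen. The 4 LNCaP groups received a control (shControl) or a short hairpin against ETV1 (shETV1), each again with EtOH or DHT. One label of the LNCaP control reads siControl, and the title's shControl is used here. In every group the RNA interference lasted 24 h, then came 2 days in hormone-depleted medium and 16 h of EtOH or 10 nM DHT, so the EtOH cells were androgen-starved cells and not untreated ones. Each line is a single established line, and knockdown was partial.

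MYC is a transcription factor that pairs with MAX, binds the E-box CACGTG and drives genes of growth, ribosome production and nucleotide synthesis. Polyamines are small positively charged molecules that growing cells need, and ODC1 is a textbook MYC target. ODC1 makes putrescine from ornithine, AMD1 makes the aminopropyl donor from S-adenosylmethionine, SRM adds that group to make spermidine, and SMS adds another to make spermine. SAT1 acetylates spermidine and spermine for breakdown or export. OAZ1, an antizyme, delivers ODC1 protein to the proteasome, and AZIN1 binds the antizyme and so spares ODC1. The prostate is known for making and secreting spermine in large amounts.

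The E-box was looked for in the promoter windows of the members, since MYC and several of them moved in these arrays. The windows run from 250 bases before to 50 bases after a RefSeq gene start (GRCh38.p14), and 6 members had 9 windows between them: ODC1, AMD1, SRM, SMS, SAT1 and OAZ1. CACGTG reads the same on both strands. It was found in a window of 2 of these 6 members, SRM and ODC1, and of 8.77% of 27305 genes in all, or in 7.26% of all 35116 windows. SRM, on the minus strand of chr1, holds it 199 bases before the start. ODC1, on the minus strand of chr2, holds it in the window of 1 of its 2 starts, 29 bases before that start and again beginning 6 bases after it. The sequences are shown because SRM is the polyamine gene whose DHT response differed most between siControl and siERG, and ODC1 the one with the largest upward DHT change in VCaP. The capitals mark the E-box, all letters run 5′ to 3′ on the gene's strand, and a match is a description of the letters and not of MYC binding.
SRM, 250 bases before the start, chr1:11060019-11060268 (−): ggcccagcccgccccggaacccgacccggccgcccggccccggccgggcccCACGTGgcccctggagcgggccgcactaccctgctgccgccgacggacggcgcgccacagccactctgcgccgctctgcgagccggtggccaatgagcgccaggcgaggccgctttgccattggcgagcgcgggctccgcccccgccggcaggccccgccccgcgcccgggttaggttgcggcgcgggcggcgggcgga
ODC1, first E-box, chr2:10448024-10448053 (−): ccgggccccgggCACGTGtgcggcgcgcct
ODC1, second E-box, chr2:10447990-10448019 (−): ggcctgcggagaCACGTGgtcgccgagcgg

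The checks on the labels came first. ERG was lower after siERG by 0.82 ± 0.06 with EtOH and 1.09 ± 0.06 with DHT, in log2 units with the standard error (adjusted p = 1.83e-05 and 2.23e-06), and ETV1 was lower after shETV1 by 0.61 ± 0.07 and 0.62 ± 0.07 (adjusted p = 0.00049 and 0.000469). FKBP5, an androgen-induced chaperone partner, rose with DHT in all 4 comparisons of DHT with EtOH, by 1.90 ± 0.07 in VCaP siControl and 3.52 ± 0.07 in LNCaP shControl (adjusted p = 1.26e-08 and 4.65e-11). Of 7 luminal markers, 5 were looked up by probe sets of their own, KRT8, KRT18, EPCAM, HOXB13 and KLK3, and all 5 passed the filter in both lines. With DHT 3 of the 5 rose and 0 fell in each VCaP background, and 3 rose and 1 fell in each LNCaP background. Over all genes 18.6% to 20.1% rose and 19.0% to 25.5% fell there. After siERG 0 rose and 3 fell with EtOH (5.37% and 5.92% of all genes), and 0 passed with DHT (3.81% and 5.24%). After shETV1 0 rose, while 1 fell with EtOH (2.97% of all genes) and 2 with DHT (2.50%). Markers of other cell types were low, but some moved with the groups as well. The summed intensity of 5 fibroblast markers ran from 552 to 635 in VCaP siControl EtOH arrays and from 329 to 527 in siControl DHT, and from 647 to 774 in siERG EtOH and 385 to 421 in siERG DHT, mostly through LUM (with DHT −2.45 ± 0.06 in siControl and −2.67 ± 0.06 in siERG). In LNCaP the same sum ran from 553 to 572 in shControl EtOH and 419 to 486 in shControl DHT, and from 549 to 584 in shETV1 EtOH and 387 to 447 in shETV1 DHT, mostly through COL1A1. The sum of 3 leukocyte markers was 414 to 482 in siControl EtOH, 465 to 526 in siControl DHT, 188 to 280 in siERG EtOH and 223 to 278 in siERG DHT, through LYZ, and 70.9 to 113 in all LNCaP arrays. The sum of 3 endothelial markers was 71.9 to 164 in VCaP and 74.2 to 204 in LNCaP, with its highest values in EtOH arrays of each line. Of the 3 endothelial and the 3 leukocyte markers summed, 2 of each passed the filter in VCaP, and some of these passed the test between groups. CDH5 and PTPRC were below the filter there, with group means of at most 11.6 and 37.1. The ratio of 3′ to 5′ GAPDH signal, a sign of RNA quality, was 1.05 ± 0.0128 in siControl EtOH, 1.07 ± 0.00805 in siControl DHT, 1.09 ± 0.0237 in siERG EtOH and 1.03 ± 0.00728 in siERG DHT (mean ± SD, n = 3). Each of the 4 VCaP comparisons of these groups, and shETV1 against shControl with DHT in LNCaP, gave the smallest p that an exact permutation test allows with 3 against 3 arrays (two-sided, p = 0.1). The same ratio of ACTB was 3.50 ± 0.0571 in siControl DHT and 2.84 ± 0.308 in siERG DHT, again with the smallest exact p of 0.1, in the comparison in which SRM and SMS were higher after siERG. The part of these markers and ratios in the results below was not tested, beyond the values with a ratio as a covariate. In bulk RNA fewer cells of a type and less RNA per cell cannot be told apart. The number of arrays, 3 in a group, limits the precision of every value.

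MYC, read by its 1 probe set, had the widest relative range of any member over the VCaP arrays. In VCaP siControl cells with EtOH its intensity was 7454, 7434 and 7309 (mean 7399 ± 78.8, SD, n = 3). With DHT it was 1413, 1623 and 1439.8 (mean 1492 ± 115, SD, n = 3). Every DHT array lay far below every EtOH array, and the change was −2.30 ± 0.11, a 4.93-fold lower level.

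In siERG cells MYC was already lower without androgen. Its intensity with EtOH was 4615, 3165 and 3892 (mean 3891 ± 725, SD, n = 3), so the 3 arrays spread more widely than in any other group, yet all lay below all siControl EtOH arrays. With DHT it was 1528, 1615 and 1538 (mean 1560.3 ± 47.4, SD, n = 3). The DHT change in siERG cells was −1.29 ± 0.11, or 2.45-fold lower, and again no array overlapped.

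The order of MYC levels in VCaP was therefore siControl EtOH highest, then siERG EtOH, then both DHT groups, whose arrays overlapped. The siERG change was −0.94 ± 0.11 with EtOH and 0.07 ± 0.11 with DHT. The difference between the DHT responses, siERG minus siControl, was 1.01 ± 0.16. The gap between siERG and siControl lay in the EtOH groups, and the groups with DHT differed by less than the standard error. Leaving out 1 array at a time gave a difference of 0.87 (without siERG EtOH replicate B) to 1.14 (without siERG EtOH replicate A), and the GAPDH ratio as a covariate gave 0.87 ± 0.32. These VCaP changes are among those by which the members were chosen, so they carry no test.

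**Figure D1:**
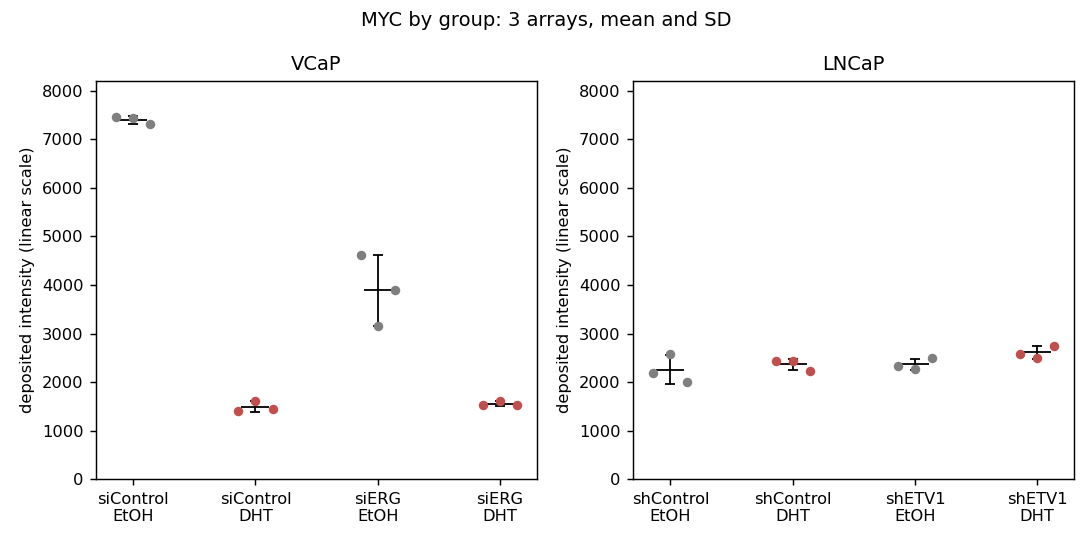
Deposited MYC intensity (linear scale, from 0) in each group, with VCaP on the left and LNCaP on the right. Points are single arrays (grey EtOH, red DHT), and the black line and bar are the mean and SD of 3 arrays. In VCaP the siControl EtOH arrays lie near 7399, siERG EtOH near 3891 and the DHT groups near 1492 and 1560.3, while the 4 LNCaP groups lie close together. Levels are compared inside a line only.

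In LNCaP no such change was seen. MYC intensity in shControl cells was 2182, 2589.6 and 2009 (mean 2260.0 ± 298, SD, n = 3) with EtOH and 2437, 2429 and 2240.0 (mean 2369 ± 112, SD, n = 3) with DHT. In shETV1 cells it was 2342, 2281 and 2500.2 (mean 2375 ± 113, SD, n = 3) with EtOH and 2589.6, 2504 and 2756 (mean 2617 ± 128, SD, n = 3) with DHT. The 4 groups sat side by side, and all shETV1 DHT arrays lay above all shETV1 EtOH and shControl DHT arrays by small margins. The DHT change was 0.07 ± 0.08 in shControl (adjusted p = 0.525) and 0.14 ± 0.08 in shETV1 (adjusted p = 0.23), neither past the test. After shETV1 MYC differed by 0.08 ± 0.08 with EtOH (adjusted p = 0.684) and 0.14 ± 0.08 with DHT (adjusted p = 0.376), and the DHT responses differed by 0.06 ± 0.12 (adjusted p = 0.951). With the 3′ to 5′ ratio of ACTB as a covariate, 2 of these passed: 0.18 for DHT in shETV1 (adjusted p = 0.0219) and 0.28 for shETV1 with DHT (adjusted p = 0.0421). The difference of the MYC response between the lines was not tested. These adjusted p-values, and those of the other members below, are from limma over all genes tested in LNCaP. They take no account of the choice of members with earlier results of these data known.

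The genes whose VCaP profile was nearest to that of MYC were found by the root mean square difference of log2 profiles over the 12 VCaP arrays, each centred on its mean. They were FZD3, a Wnt receptor (0.206), TFPI, an inhibitor of coagulation (0.208), RUNDC3B (0.257), CDCA7L, a partner of MYC (0.272), and DACH1, a transcriptional repressor (0.281). The median over all genes was 0.965, and a flat profile would score 0.966, the root mean square of MYC's own centred profile. All 5 were lower with DHT, with log2 changes from −1.90 to −1.72 in siControl and from −1.78 to −1.24 in siERG. The siERG change with EtOH ran from −0.61 for RUNDC3B to −0.21 for DACH1, against −0.94 ± 0.11 for MYC, so that each was smaller in size than that of MYC. In LNCaP, where MYC moved little, the nearest profiles were those of DENND5A (0.042), NAT10 (0.043), ZNF700 (0.049), TMEM203 (0.052) and SRA1 (0.053), against a median of 0.180 over all genes. A flat profile would score 0.119 there, which is itself below that median. These likenesses describe 12 arrays of 1 line and carry no test.

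**Figure D2:**
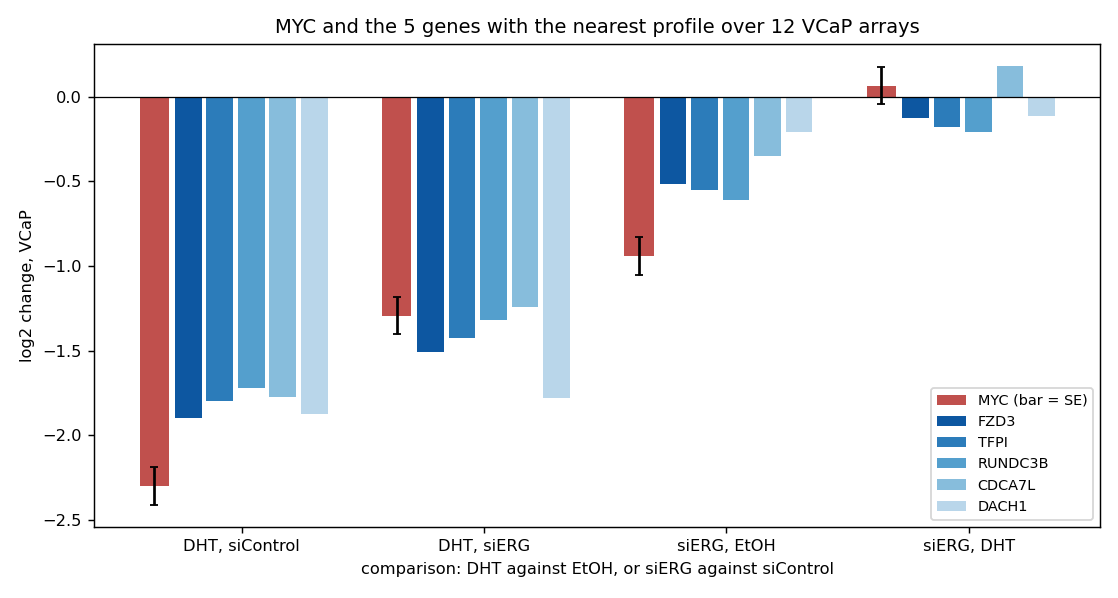
Log2 change in VCaP (vertical axis) of MYC (red, bar = SE) and of the 5 genes with the nearest profile (blue) in 4 comparisons of 3 against 3 arrays. MYC goes from −2.30 with DHT in siControl to −1.29 in siERG, and its change after siERG with EtOH, −0.94, is larger in size than that of any of the 5 genes.

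ODC1, the enzyme that opens the pathway, was higher with DHT in both VCaP backgrounds in which MYC was lower. In VCaP siControl its intensity was 3943, 3975 and 3655 (mean 3858 ± 177, SD, n = 3) with EtOH and 10982, 11223 and 10757 (mean 10987 ± 233, SD, n = 3) with DHT. In siERG it was 3888, 4189 and 3725 (mean 3934 ± 235, SD, n = 3) with EtOH and 11472, 11050.0 and 9939 (mean 10820.3 ± 792, SD, n = 3) with DHT. The DHT arrays lay far above the EtOH arrays in both. The DHT change was 1.51 ± 0.06 in siControl, 2.84-fold higher, and 1.46 ± 0.06 in siERG, and the responses differed by −0.05 ± 0.09. After siERG ODC1 differed by 0.03 ± 0.06 with EtOH and −0.02 ± 0.06 with DHT, with overlapping arrays. MYC with EtOH was lower by 0.94 in the same siERG cells, and its part in the ODC1 level was not tested.

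In LNCaP ODC1 rose as well. Its intensity in shControl was 7037, 6947 and 7214 (mean 7066 ± 136, SD, n = 3) with EtOH and 11278, 11217 and 11421 (mean 11306 ± 105, SD, n = 3) with DHT, and in shETV1 7148, 7455 and 7278 (mean 7294 ± 154, SD, n = 3) with EtOH and 11531, 10974 and 11488 (mean 11331 ± 310, SD, n = 3) with DHT. The rise was 0.68 ± 0.04 in shControl (adjusted p = 1.04e-07) and 0.63 ± 0.04 in shETV1 (adjusted p = 2.01e-07), and no DHT array overlapped an EtOH array. The shETV1 change was 0.05 ± 0.04 with EtOH and 0.003 ± 0.04 with DHT (adjusted p = 0.577 and 0.977).

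SRM, spermidine synthase, was the polyamine gene whose DHT response differed most between siControl and siERG. In siControl its intensity was 1463, 1422 and 1354 (mean 1413 ± 55, SD, n = 3) with EtOH and 1825, 1777 and 1812 (mean 1804 ± 24.9, SD, n = 3) with DHT. In siERG it was 1239, 1384 and 1202 (mean 1275 ± 96.4, SD, n = 3) with EtOH and 2356, 2318 and 2278 (mean 2317 ± 39.1, SD, n = 3) with DHT. The siERG DHT arrays stood above all others, and the EtOH arrays of siERG and siControl overlapped. The DHT change was 0.35 ± 0.05 in siControl (1.27-fold) and 0.86 ± 0.05 in siERG (1.81-fold), a difference of 0.51 ± 0.08. The siERG change was −0.15 ± 0.05 with EtOH and 0.36 ± 0.05 with DHT, so for SRM the larger gap lay in the DHT groups, where for MYC it lay in the EtOH groups. With the GAPDH ratio as a covariate the difference of responses was 0.39 ± 0.15, and leaving out 1 array at a time gave 0.47 to 0.57. As for MYC, these VCaP values are a description, since the members were chosen by them.

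In LNCaP SRM intensity was 1413, 1500.2 and 1455 (mean 1456 ± 43.4, SD, n = 3) in shControl EtOH and 2128, 2043 and 1951 (mean 2041 ± 88.4, SD, n = 3) in shControl DHT. In shETV1 it was 1468, 1579.9 and 1729 (mean 1592 ± 131, SD, n = 3) with EtOH and 2129, 1999.9 and 2131 (mean 2087 ± 75.2, SD, n = 3) with DHT. SRM rose with DHT by 0.48 ± 0.06 in shControl (adjusted p = 8.47e-05) and by 0.39 ± 0.06 in shETV1 (adjusted p = 0.000434), and all DHT arrays were above all EtOH arrays. The responses differed by −0.09 ± 0.09 (adjusted p = 0.881), and the shETV1 changes were 0.12 ± 0.06 with EtOH and 0.03 ± 0.06 with DHT (adjusted p = 0.318 and 0.825).

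SMS, spermine synthase, had the largest LNCaP rise among the brightest probe sets of the members. In LNCaP shControl its intensity was 2329.5, 2337 and 2345 (mean 2337 ± 7.97, SD, n = 3) with EtOH and 5475, 5507 and 5474 (mean 5485 ± 18.8, SD, n = 3) with DHT, and in shETV1 2376, 2374 and 2456 (mean 2402 ± 46.6, SD, n = 3) with EtOH and 5456, 5629 and 5295 (mean 5460.1 ± 167, SD, n = 3) with DHT. The EtOH and DHT arrays were far apart, with a rise of 1.23 ± 0.04 in shControl (adjusted p = 6.76e-10, 2.34-fold) and 1.18 ± 0.04 in shETV1 (adjusted p = 1.01e-09). The shETV1 changes were 0.04 ± 0.04 and −0.01 ± 0.04 with EtOH and DHT (adjusted p = 0.624 and 0.942). In VCaP SMS intensity was 3055, 3081 and 2993 (mean 3043 ± 45, SD, n = 3) in siControl EtOH and 4005, 4038 and 3706 (mean 3916 ± 183, SD, n = 3) in siControl DHT. In siERG it was 3453, 3681 and 3569 (mean 3568 ± 114, SD, n = 3) with EtOH and 4402, 4503 and 4410.1 (mean 4438 ± 56.2, SD, n = 3) with DHT. No array of any of these 4 groups overlapped with another group. The DHT change was 0.36 ± 0.04 in siControl and 0.31 ± 0.04 in siERG, and SMS was higher after siERG by 0.23 ± 0.04 with EtOH and 0.18 ± 0.04 with DHT. It was the 1 member of the 8 with all siERG arrays above all siControl arrays under both treatments.

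AMD1, S-adenosylmethionine decarboxylase, moved less. The intensity of its brighter probe set ran from 6584 to 8262 over the VCaP arrays and from 5972 to 7554 over the LNCaP arrays. It was higher with DHT in VCaP by 0.17 ± 0.05 in siControl and 0.17 ± 0.05 in siERG, and rose in LNCaP by 0.19 ± 0.04 in shControl (adjusted p = 0.00251) and 0.23 ± 0.04 in shETV1 (adjusted p = 0.00069). The other AMD1 probe set disagreed in VCaP, with DHT changes of 0.04 ± 0.04 and 0.06 ± 0.04 and lower values after siERG (−0.19 ± 0.04 with EtOH, −0.18 ± 0.04 with DHT). In LNCaP it rose by 0.38 ± 0.05 and 0.36 ± 0.05 (limma adjusted p over all probe sets = 0.000194 and 0.000348). Averaging both AMD1 probe sets gave DHT changes of 0.11 and 0.12 in VCaP.

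SAT1, the enzyme that acetylates polyamines for breakdown, rose in LNCaP beside the synthesis enzymes. In LNCaP shControl its intensity was 4272, 4271 and 4139 (mean 4227 ± 76.6, SD, n = 3) with EtOH and 7592, 7717 and 7883 (mean 7731 ± 146, SD, n = 3) with DHT, and in shETV1 3603, 3779 and 3920.0 (mean 3768 ± 159, SD, n = 3) with EtOH and 7049, 7186 and 7015 (mean 7083 ± 90.4, SD, n = 3) with DHT. The rise was 0.87 ± 0.04 in shControl (adjusted p = 2.72e-08) and 0.91 ± 0.04 in shETV1 (adjusted p = 2.09e-08), with no overlap of arrays. All 3 SAT1 probe sets rose with DHT in LNCaP, the other two by 0.81 ± 0.05 and 1.31 ± 0.06 in shControl and by 0.86 ± 0.05 and 1.31 ± 0.06 in shETV1. After shETV1 with EtOH SAT1 fell by 0.17 ± 0.04 (adjusted p = 0.0466), and all 3 shETV1 arrays were below all 3 controls. This call was near the threshold: it was lost in 8 of 14 other settings (adjusted p = 0.0512 to 0.467 there) and without any one of the 6 arrays compared other than shETV1 EtOH replicate C (adjusted p = 0.0733 to 0.148). With DHT the shETV1 change was −0.13 ± 0.04 (adjusted p = 0.109).

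In VCaP SAT1 intensity was 5979, 6045 and 5855 (mean 5959 ± 96.5, SD, n = 3) in siControl EtOH and 7205, 7216 and 6921 (mean 7114 ± 167, SD, n = 3) in siControl DHT. In siERG it was 5542, 5753 and 5528 (mean 5608 ± 126, SD, n = 3) with EtOH and 7039, 7271 and 6598 (mean 6969 ± 342, SD, n = 3) with DHT. It was higher with DHT by 0.25 ± 0.05 in siControl and 0.31 ± 0.05 in siERG, and the siERG changes were −0.09 ± 0.05 with EtOH and −0.03 ± 0.05 with DHT. The dimmest SAT1 probe set gave larger DHT changes, 0.44 ± 0.05 and 0.60 ± 0.05, and a siERG change with EtOH of −0.21 ± 0.05. In it and in the brightest set all siERG EtOH arrays lay below all siControl EtOH arrays. In the remaining set these arrays overlapped (−0.03 ± 0.04). With DHT the siERG and siControl arrays overlapped in every SAT1 probe set.

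Among the polyamine genes the regulators of ODC1 protein moved least with DHT in their brightest probe sets. OAZ1, the antizyme, ran from 11032 to 12800.2 over VCaP arrays and from 11819.7 to 12562 over LNCaP arrays in its brighter probe set. Its DHT changes in VCaP were 0.06 ± 0.05 in siControl and 0.13 ± 0.05 in siERG, and in LNCaP −0.01 ± 0.04 and −0.01 ± 0.04 (adjusted p = 0.876 and 0.872). In siERG OAZ1 was past the threshold upward, and no DHT array overlapped an EtOH array. The other OAZ1 probe set gave 0.001 ± 0.04 in siControl and 0.09 ± 0.04 in siERG with DHT. In this set all siERG DHT arrays lay above all siControl DHT arrays (0.09 ± 0.04). AZIN1, the antizyme inhibitor, ran from 2229 to 2757 over VCaP arrays and from 2196 to 2672 over LNCaP arrays in its brightest probe set. Its DHT changes were −0.08 ± 0.07 and −0.12 ± 0.07 in VCaP, and −0.13 ± 0.05 in LNCaP shControl (adjusted p = 0.082) and −0.07 ± 0.05 in shETV1 (adjusted p = 0.362). The LNCaP shControl change passed downward with averaged probe sets (adjusted p = 0.0185), after quantile normalization (0.00434), and without shControl EtOH replicate C (0.0453) or shControl DHT replicate A (0.0352). The shETV1 change passed after quantile normalization (0.0423). A dimmer AZIN1 probe set fell with DHT in shETV1 by 0.18 ± 0.06 (adjusted p = 0.0314) and gave −0.10 ± 0.06 in shControl (adjusted p = 0.191). The third AZIN1 probe set was below the filter, and averaging probe sets turned the siControl change to 0.03. After shETV1 neither regulator passed, with changes from −0.05 to 0.01 log2 units in their brightest probe sets. The other OAZ1 probe set gave 0.11 ± 0.06 with EtOH and 0.02 ± 0.06 with DHT (limma adjusted p over all probe sets = 0.417 and 0.897).

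**Figure D3:**
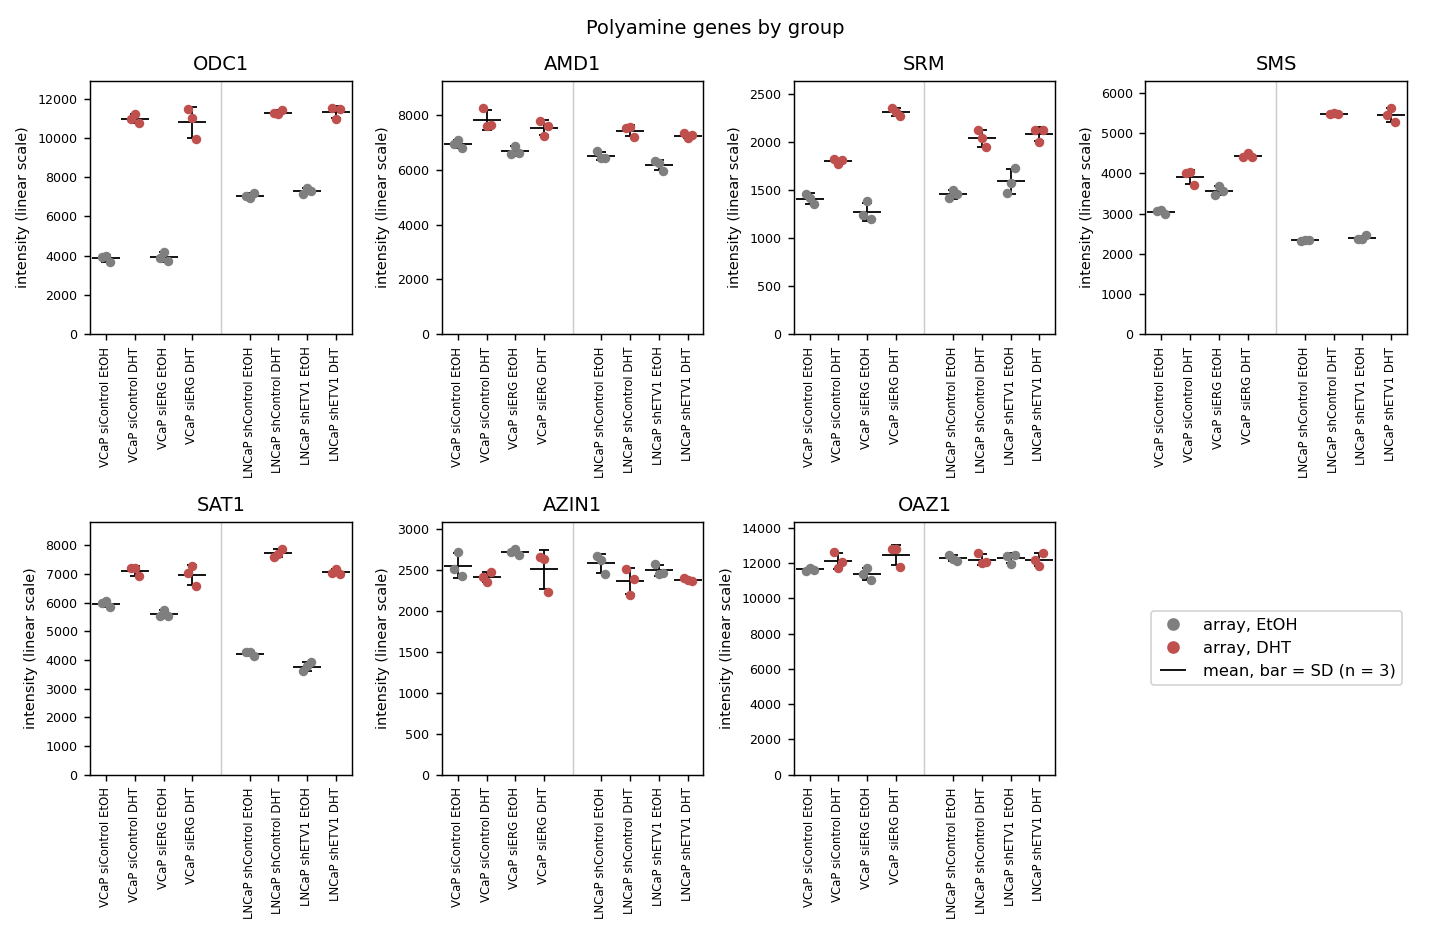
Deposited intensity (linear scale, from 0) of the 7 polyamine genes, VCaP groups left and LNCaP groups right of the grey line in each panel. Points are single arrays (grey EtOH, red DHT), and the black line and bar are the mean and SD of 3 arrays. ODC1, SRM, SMS and SAT1 show DHT arrays clearly above the EtOH arrays of the same line and background, and AZIN1 does not. For OAZ1 the DHT arrays lie above the EtOH arrays only in siERG, by a narrow margin.

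**Figure D4:**
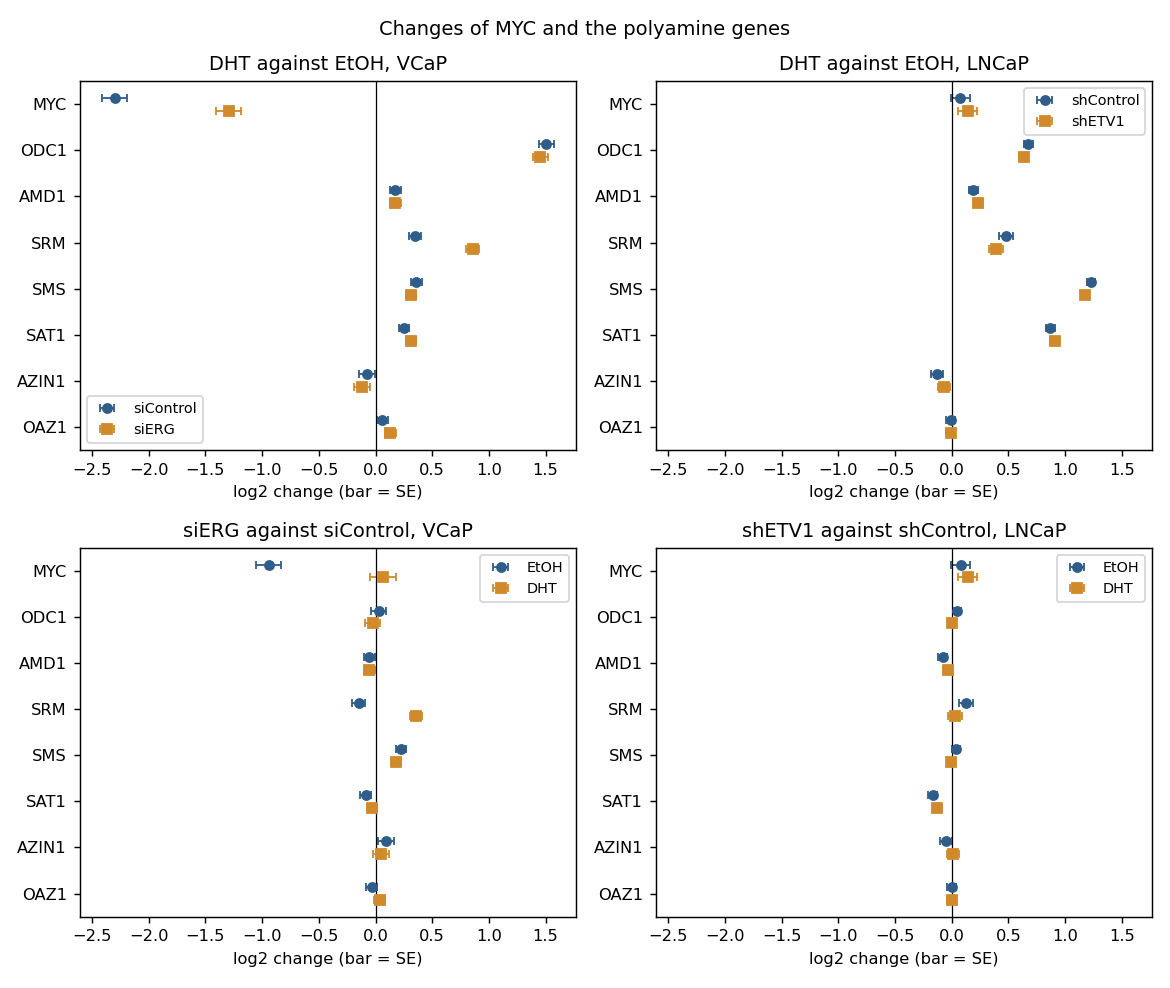
Log2 change ± SE (horizontal axis, n = 3 arrays per group) of each member, with DHT against EtOH above and knockdown against control below, VCaP left and LNCaP right. In VCaP MYC lies at −2.30 and −1.29 with DHT while ODC1 lies at 1.51 and 1.46, and the SRM values of siControl and siERG, 0.35 and 0.86, stand apart.

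Counted over the 8 members in LNCaP, 5 rose with DHT in shControl, 0 fell and 3 did not pass, at a background of 18.6% of all genes tested that rose and 22.3% that fell. The 5 were ODC1, AMD1, SRM, SMS and SAT1. The same 5 rose in shETV1 while 0 fell, where 18.9% of all genes rose and 19.0% fell. The median member change was 0.34 in shControl and 0.31 in shETV1, against −0.01 and −0.003 over all genes. The members were chosen with earlier results of these data known, so these counts and medians describe them and do not test the set. After shETV1 with EtOH 0 members rose and 1, SAT1, fell (1.23% and 2.97% of all genes), a count that was 0 without any one of 5 of the 6 arrays, all but shETV1 EtOH replicate C. With DHT 0 members passed in limma (2.68% of all genes rose and 2.50% fell), and 1 fell at an unadjusted p below 0.05. For the difference of DHT responses 0 members passed (0.0781% and 0.0234% of all genes), and 0 at an unadjusted p below 0.05. After quantile normalization and after centring on the array median the share of upward calls over all genes after shETV1 with DHT went from 51.7% to 33.6% and 31.5%, and centring gave 1 member, SAT1, past the threshold there (−0.16, adjusted p = 0.0467).

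In VCaP the same count only restates the choice of members. With DHT 5 were past the threshold upward and 1, MYC, downward in siControl, where 19.6% of all genes rose and 25.5% fell. In siERG 6 were upward and 1 downward, where 20.1% rose and 25.3% fell. After siERG with EtOH SMS was upward and MYC downward (5.37% and 5.92% of all genes), and with DHT SRM and SMS were upward and 0 downward (3.81% and 5.24%). For the difference of DHT responses MYC and SRM were upward and 0 members downward, against 0.0778% and 0.272% of all genes, or 10 and 35 of 12850. The last count was 0 without the filter and with the GAPDH or ACTB ratio as a covariate. It was 1 without siERG EtOH replicate A, 2 without siERG EtOH replicate B or siERG DHT replicate C, and 0 without any one of the other 9 of the 12 arrays. The comparisons within a line share arrays, so their counts are not independent of one another. The counts over all genes moved as well with 1 array left out, from 0 to 40 genes upward and from 0 to 36 downward. The count after siERG with DHT was 1 with the ACTB ratio and 0 with the GAPDH ratio as a covariate, and 1 without siControl DHT replicate A or C or siERG DHT replicate A or B. The share of upward calls over all genes went from 44.2% to 58.3% after centring for DHT in siERG, and from 47.6% to 25.1% for siERG with EtOH.

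Around the members, polyamine breakdown, antizymes and ornithine supply were followed with 10 genes, 9 tested in VCaP and 8 in LNCaP. With DHT 2 rose and 1 fell in VCaP siControl, 3 rose and 3 fell in siERG, 3 rose and 0 fell in LNCaP shControl, and 2 rose and 0 fell in shETV1. Over all genes 19.6% rose and 25.5% fell in siControl, 20.1% and 25.3% in siERG, 18.6% and 22.3% in shControl, and 18.9% and 19.0% in shETV1, so most of these counts lie near the background. ARG2, an arginase that makes ornithine, fell by 2.01 ± 0.08 in siControl and 1.92 ± 0.08 in siERG (adjusted p = 2.44e-08 and 3.10e-08), but rose in LNCaP by 0.41 ± 0.05 and 0.45 ± 0.05 (adjusted p = 2.87e-05 and 1.76e-05). SMOX, which oxidizes spermine, rose by 0.49 ± 0.06 and 0.44 ± 0.06 in VCaP (adjusted p = 6.27e-05 and 0.000127). After siERG 0 rose and 2 fell with EtOH and 0 rose and 3 fell with DHT. Over all genes 5.37% rose and 5.92% fell after siERG with EtOH, and 3.81% and 5.24% with DHT. OAZ3, an antizyme known from the testis, fell by 0.61 ± 0.07 with EtOH and 0.63 ± 0.07 with DHT (adjusted p = 0.000483 and 0.000325).

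Of 9 genes of the methionine and methylthioadenosine cycle, which supplies AMD1 and recovers its by-product, 8 were tested in each line. With DHT 2 rose and 3 fell in VCaP siControl and likewise 2 and 3 in siERG, while 4 rose and 1 fell in LNCaP shControl and 4 rose and 0 fell in shETV1. The VCaP counts lie near the shares over all genes (19.6% and 25.5% in siControl, 20.1% and 25.3% in siERG). The LNCaP counts stand beside 18.6% rising and 22.3% falling in shControl, and 18.9% and 19.0% in shETV1. MTAP, which salvages methylthioadenosine, fell in VCaP by 0.43 ± 0.07 in siControl and 0.29 ± 0.07 in siERG (adjusted p = 0.000403 and 0.00493). It rose by 0.42 ± 0.07 in LNCaP shETV1 (adjusted p = 0.000496). APIP, an enzyme of the salvage pathway, rose in LNCaP by 0.82 ± 0.04 and 0.75 ± 0.04 (adjusted p = 2.12e-08 and 4.98e-08). MAT2A, which makes S-adenosylmethionine, rose in VCaP by 0.30 ± 0.08 in siControl and 0.45 ± 0.08 in siERG (adjusted p = 0.012 and 0.00112).

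Of 9 genes of hypusine formation and polyamine transport, all tested, 1 rose and 3 fell with DHT in VCaP siControl, 1 and 3 in siERG, 2 and 3 in LNCaP shControl, and 0 and 2 in shETV1. As over all genes 19.6%, 20.1%, 18.6% and 18.9% rose in these comparisons and 25.5%, 25.3%, 22.3% and 19.0% fell, the counts are no result about this list. SLC18B1, a vesicular polyamine transporter, fell by 1.25 ± 0.07 in siControl and 1.14 ± 0.07 in siERG (adjusted p = 2.43e-07 and 4.59e-07) and by 0.53 ± 0.04 and 0.44 ± 0.04 in LNCaP (adjusted p = 2.82e-06 and 1.42e-05). It rose after siERG by 0.43 ± 0.07 with EtOH and 0.53 ± 0.07 with DHT (adjusted p = 0.0038 and 0.00101). ATP13A3, an ATPase of polyamine uptake, fell by 0.41 ± 0.05 and 0.36 ± 0.05 with DHT in VCaP (adjusted p = 3.92e-05 and 9.53e-05). No gene of these 3 lists passed for the difference of DHT responses in either line. Over all genes 0.0778% rose and 0.272% fell there in VCaP, and 0.0781% and 0.0234% in LNCaP. In limma 4 of 26 genes in VCaP and 2 of 25 in LNCaP had an unadjusted p below 0.05. The share of all genes at that cut was not counted.

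Among MYC's family and partners 13 genes were tested in each line. With DHT 2 rose and 3 fell in VCaP siControl, 3 and 2 in siERG, and 3 and 2 in each LNCaP background. These counts are close to the background, in which 18.6% to 20.1% of all genes rose and 19.0% to 25.5% fell over the 4 comparisons. MXI1, a MAX partner that opposes MYC, fell in all 4 comparisons, by 0.77 ± 0.05 in VCaP siControl, 0.47 ± 0.05 in siERG, 0.40 ± 0.06 in LNCaP shControl and 0.30 ± 0.06 in shETV1 (adjusted p = 1.13e-06, 4.05e-05, 0.000149 and 0.00129). MLXIP, a glucose-sensing relative, fell in LNCaP by 0.54 ± 0.04 and 0.44 ± 0.04 (adjusted p = 8.44e-07 and 5.30e-06). MAX itself fell in VCaP siControl by 0.20 ± 0.05 (adjusted p = 0.0108), a call lost with averaged probe sets. Of 10 genes that act on the stability of MYC protein, 1 rose and 4 fell with DHT in each VCaP background, and 0 rose in LNCaP while 2 fell in shControl and 1 in shETV1, beside the same background shares. SKP2, a ubiquitin ligase subunit, fell by 0.78 ± 0.05 and 0.72 ± 0.05 in VCaP (adjusted p = 3.36e-07 and 6.21e-07), and USP28, a deubiquitinase that stabilizes MYC, by 0.41 ± 0.05 and 0.40 ± 0.05 (adjusted p = 0.000103 and 0.000106). GSK3B, a kinase that marks MYC for decay, fell in LNCaP by 0.25 ± 0.04 and 0.21 ± 0.04 (adjusted p = 0.000838 and 0.00318).

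Other genes that MYC is known to activate moved both ways. Of 24 tested, 5 rose and 10 fell with DHT in VCaP siControl, where 19.6% of all genes rose and 25.5% fell. The rising share is thus at the background and the falling share above it, an excess that was not tested. The list was chosen with earlier results of these data known. The median was −0.13 against −0.03 over all genes. In siERG 6 rose and 3 fell (20.1% and 25.3% of all genes), with a median of 0.02 against −0.03. FBL, a methylase of ribosomal RNA, fell by 0.60 ± 0.06 in siControl and 0.35 ± 0.06 in siERG (adjusted p = 1.71e-05 and 0.00072). PAICS, an enzyme of purine synthesis, fell by 0.50 ± 0.06 in siControl (adjusted p = 6.91e-05), a direction that turned with probe sets ending in _x_at or _s_at left out (0.015). Glycolytic ENO1 rose by 0.41 ± 0.05 and 0.52 ± 0.05 (adjusted p = 5.59e-05 and 1.01e-05), and SHMT2, which feeds one-carbon metabolism, by 0.52 ± 0.07 and 0.60 ± 0.07 (adjusted p = 9.14e-05 and 3.25e-05). ENO1 and SHMT2 were among the 5 that rose in siControl, where 10 genes of the list fell. What part MYC has in these changes was not tested. For the difference of DHT responses between siERG and siControl 0 of the 24 passed in limma, where 0.0778% of all genes rose and 0.272% fell. In limma 6 were higher and 1 lower at an unadjusted p below 0.05. The share of all genes at that cut was not counted, so these counts are no result about the list. The median was 0.10 against 0.004 over all genes. After siERG 1 rose and 3 fell with EtOH, FBL among them (−0.30 ± 0.06, adjusted p = 0.0106), and 1 rose and 0 fell with DHT. The shares over all genes were 5.37% rising and 5.92% falling with EtOH, and 3.81% and 5.24% with DHT. With the GAPDH ratio as a covariate the FBL change after siERG with EtOH was −0.20 (adjusted p = 0.319).

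In LNCaP, where MYC did not pass, 6 of these 24 rose and 1 fell with DHT in shControl, and 11 rose and 0 fell in shETV1. Over all genes 18.6% rose and 22.3% fell in shControl, and 18.9% and 19.0% in shETV1. CDC25A, a cell cycle phosphatase, rose by 0.64 ± 0.10 and 0.70 ± 0.10 (adjusted p = 0.000405 and 0.000237), while in VCaP siERG it fell by 0.44 ± 0.10 (adjusted p = 0.004). NOP16, a nucleolar protein, rose by 0.46 ± 0.05 and 0.51 ± 0.05 (adjusted p = 1.21e-05 and 6.42e-06). The E-box was found in a promoter window of 13 of 25 genes of this list with a window, and of 8.77% of 27305 genes in all. The list was picked for known activation by MYC, so this share is a trait of the list and no result of these arrays. Of 8 genes that MYC is known to repress, all tested, 5 rose and 2 fell with DHT in VCaP siControl, 4 and 1 in siERG, 2 and 3 in LNCaP shControl and 2 and 4 in shETV1, beside 19.6% and 25.5%, 20.1% and 25.3%, and the LNCaP shares just given. CDKN1A, the cell cycle inhibitor p21, rose in VCaP by 0.38 ± 0.07 and 0.56 ± 0.07 (adjusted p = 0.0012 and 8.47e-05) and fell in LNCaP by 0.38 ± 0.04 and 0.40 ± 0.04 (adjusted p = 3.33e-05 and 2.54e-05). CEBPD, a differentiation factor, rose in VCaP by 0.87 ± 0.07 and 0.87 ± 0.07 (adjusted p = 4.75e-06 and 4.44e-06) and also in LNCaP, where MYC did not pass, by 0.50 ± 0.04 and 0.64 ± 0.04 (adjusted p = 2.58e-06 and 3.80e-07), calls lost with averaged probe sets (0.25 and 0.26, adjusted p = 0.0641 and 0.0564). The genes that fell in VCaP were NDRG2, by 0.42 ± 0.08 in siControl and 0.63 ± 0.08 in siERG (adjusted p = 0.000893 and 5.43e-05), and CEBPA, a relative of CEBPD, by 0.48 ± 0.16 in siControl (adjusted p = 0.033). That CEBPA call was lost without the filter (adjusted p = 0.0567), with the GAPDH ratio (0.0523), and without replicate A or B of siControl EtOH or of siControl DHT (0.0831 to 0.116). CEBPA also fell in LNCaP, by 0.38 ± 0.06 and 0.35 ± 0.06 (adjusted p = 0.000567 and 0.00105). NDRG1, which is also strongly induced by androgen, rose in LNCaP by 2.99 ± 0.04 and 3.04 ± 0.04 (adjusted p = 1.01e-11 and 1.51e-11). In VCaP siControl it rose by 0.25 ± 0.05 (adjusted p = 0.00127). The part of MYC in the changes of these lists was not tested.

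**Figure D5:**
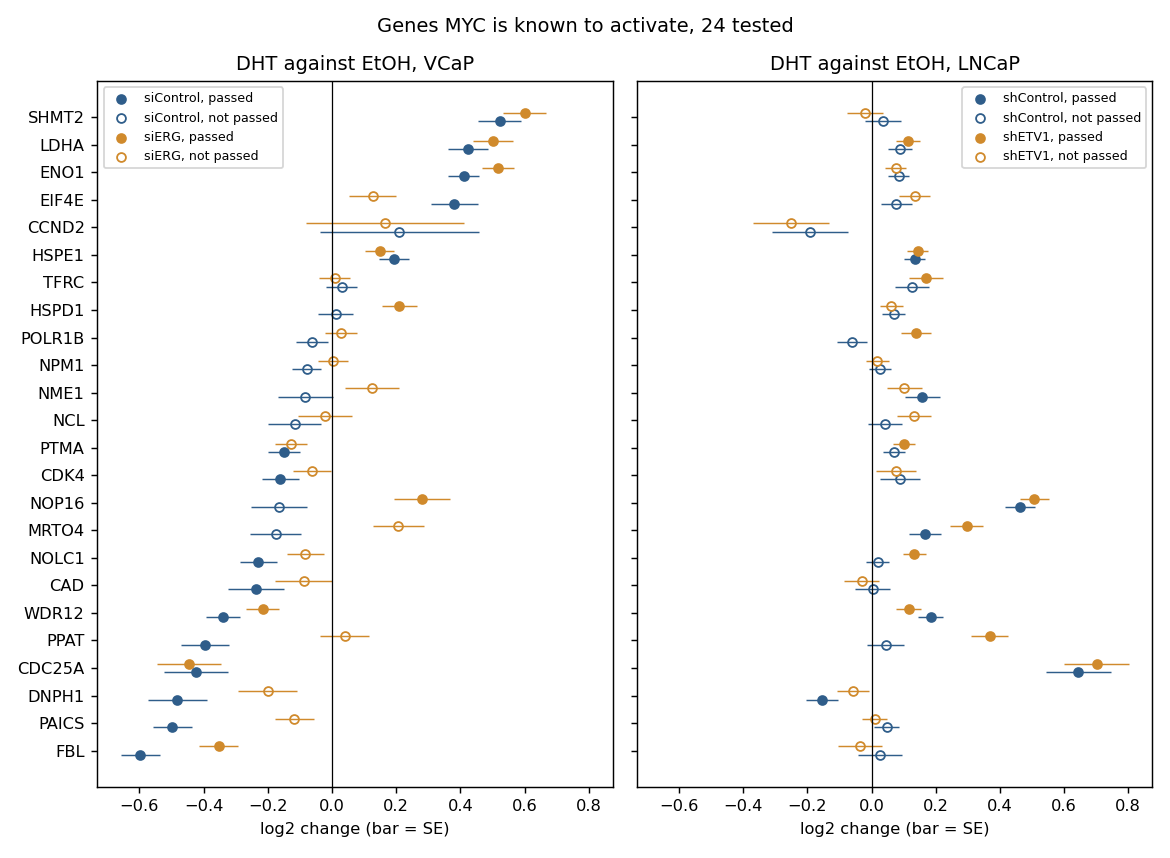
Log2 change ± SE with DHT (horizontal axis, n = 3 arrays per group) of the 24 tested genes that MYC is known to activate, VCaP left and LNCaP right. Filled points passed the test and open points did not, blue is control and orange knockdown. In VCaP siControl 10 genes fell and 5 rose, with FBL lowest at −0.60 and SHMT2 highest at 0.52, and in LNCaP CDC25A is highest at 0.64 and 0.70.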

How the data were processed

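The deposited files hold 1 linear intensity per probe set and array, as the authors summarised them. Which software summarised and scaled them is not given in the sources. The median intensity of an array was 47.57 to 53.25 in VCaP and 42.73 to 44.78 in LNCaP, and a value of exactly 1 stood 6 to 13 times in a VCaP array and 605 to 698 times in a LNCaP array, so the lines were analysed apart and no level was set against the other line.

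Probe sets were named through the platform annotation: 41097 had 1 gene, 1801 several and 11777 none. Each gene was read from 1 probe set, the brightest by its mean of all 24 arrays. Values were taken as log2(intensity + 16), which understates changes of dim genes, and a gene was tested in a line if 3 or more of its 12 arrays had it over their own median (12850 genes in VCaP, 12809 in LNCaP). limma 3.58.1 (R 4.3.3) was fitted per line to 4 groups of 3 arrays, with p-values adjusted by Benjamini-Hochberg over all genes tested and called below 0.05. Errors of log2 changes are standard errors.

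The members and the gene lists were chosen with earlier results of these data known. List genes were named by a rule that takes, per list and comparison, up to 2 risen and 2 fallen genes with the smallest adjusted p, and part of them is given. The alternatives covered the pseudocount (1, 64), probe set choice, filter (none, 60th percentile), quantile normalization, centring, array weights, the 3′ to 5′ ratios as covariates, the arrays in the fit, the replicate block and each array left out.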

Additional observations from a re-analysis of the deposited data

Results flagged for a closer look

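In VCaP the DHT responses of MYC and SRM differed between siERG and siControl by 1.01 ± 0.16 and 0.51 ± 0.08 log2 units with the standard error. MYC was lower with DHT in both backgrounds and less so in siERG, and SRM was higher with DHT in both and more so in siERG. The members were chosen on this contrast, so both differences are a description with no test. The number of members past the threshold there, 2, was 0 without any one of 9 of the 12 arrays. In LNCaP the matching differences between shETV1 and shControl, 0.06 ± 0.12 for MYC and −0.09 ± 0.09 for SRM, did not pass (adjusted p = 0.951 and 0.881).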

How the results depend on the processing

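Of 1680 member values recomputed, 1629 were counted as unchanged. For VCaP members that meant a move smaller than the gene's SD within groups, whether or not the threshold was crossed. For LNCaP members it meant the same side of the threshold, and a turned sign was ignored where neither fit passed. Of 3127 values of named list genes, 2792 kept their direction and their side of the threshold, 321 no longer passed and 14 reversed. Averaging probe sets reversed MAT2B (0.11) and MNT (−0.12) with DHT in siControl, PECAM1 with DHT in siERG (−0.060) and after siERG with EtOH (0.059), TFRC after siERG with EtOH (−0.014), and POLR1B after shETV1 with DHT (−0.0068). Without _x_at and _s_at probe sets these reversed: MLX with DHT in siControl (−0.41), siERG (−0.027) and shControl (−0.065), PAICS in siControl (0.015), AGMAT after siERG (0.14 with EtOH, 0.076 with DHT), PPAT after siERG with EtOH (0.11) and POLR1B (−0.13). The cause was not tested.

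Members past the threshold numbered 4 with DHT in siERG and 1 after siERG with EtOH with the GAPDH covariate. After siERG with DHT they numbered 1 without the filter, after quantile normalization or centring, with the ACTB covariate or with only the 2 groups compared, 0 with GAPDH, and 1 to 2 with 1 array left out. For the VCaP difference of responses they numbered 0 without the filter, with either covariate or with the replicate block, and 0 to 2 with 1 array left out. After shETV1 with EtOH they numbered 0 with averaged probe sets, without _x_at and _s_at probe sets, without the filter, after centring, with either covariate, with only the 2 groups or with the replicate block, and 0 to 1 with 1 array left out. After shETV1 with DHT they numbered 1 after centring and with ACTB. With ACTB the LNCaP MYC changes of 0.18 (DHT in shETV1, adjusted p = 0.0219) and 0.28 (shETV1 with DHT, adjusted p = 0.0421) passed.

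The letters A, B and C did not pair the arrays: same-letter correlations ran from −0.125 to 0.124, with 3 of 24 over 0.1. Dim probe sets, such as the AZIN1 set below the filter, lie near background.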
